A study of Rattus norvegicus with 66 samples.

Results

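Neurotrophins are secreted growth factors that promote the survival of neurons, the growth of their processes and the maturation and plasticity of synapses, and the hippocampus is a brain region in which brain-derived neurotrophic factor (BDNF) is well studied. They are made as proneurotrophins and cleaved to mature factors. Mature BDNF acts mainly on the tyrosine kinase receptor TrkB and neurotrophin-3 on TrkC, while the p75 neurotrophin receptor binds all neurotrophins and, together with sortilin, the proforms. The genes described here are Bdnf, Ntf3 (neurotrophin-3), Ntrk2 (TrkB), Ntrk3 (TrkC), Ngfr (p75) and Sort1 (sortilin). They were taken by symbol, each had 1 entry, and they are 6 of the 37777 genes listed. All 6 passed the filter on low counts in every comparison.

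RNA of dorsal hippocampus was sequenced from 64 Long Evans rat pups on postnatal day (PND) 6, while exposure went on. Dams had received Aroclor 1254, a commercial mixture of polychlorinated biphenyls, or bisphenol A, a plastics monomer, in soy-free chow at 0.5 or 5 mg/kg per day (Aro0.5, Aro5, BPA0.5, BPA5) from before mating, or chlorpyrifos, an organophosphate insecticide, by subcutaneous injection at 1 or 3 mg/kg per day (CPF1, CPF3) in gestation and again after birth. Feeding controls (CONF) had soy-free chow alone. Injection controls (CONSC) had the vehicle alone, which the sample labels give as saline and the study's methods as dimethyl sulfoxide. Males comprised 4 CONF, 5 CONSC, 4 Aro0.5, 4 BPA0.5, 4 CPF1, 6 Aro5, 7 BPA5 and 7 CPF3 pups, and females 5 CONF, 5 CONSC, 5 Aro5, 4 BPA5 and 4 CPF3 pups. CONF and CONSC were combined within each sex, giving 9 male and 10 female controls. The comparisons ask whether exposure of the dams changed gene expression in the offspring and whether the sexes differ.

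Library totals ranged from 10644138 to 86206550 counts, and levels are given as CPM, counts per 1000000 counts of the library, as mean ± SD over pups. At this depth the pups had 41 to 805 counts for Bdnf, 24 to 889 for Ntf3 and 65 to 727 for Ngfr, against 777 to 5475 for Ntrk3, 2048 to 20974 for Sort1 and 4334 to 35263 for Ntrk2. The dissected piece held hippocampus and some laterally adjacent cortex. Some markers of hippocampal fields were found in every pup, such as Prox1 of the dentate gyrus at 22.9 to 182 CPM. Others of the same lists were low. Dsp and C1ql2 of the dentate gyrus had means of 2.73 and 1.37 CPM, with C1ql2 at 0 in 2 pups. Fibcd1 of CA1 was at 0 in all 64 pups. Markers of regions that border the hippocampus were also found in every pup: Tcf7l2, a transcription factor of the thalamus, ranged from 23.7 to 707 CPM. In the injection control female 9-1x the 3 excitatory neuron markers (Neurod2, Neurod6, Slc17a7) summed to 42.2 CPM and the 6 striatal markers to 1109 CPM. That excitatory sum was the lowest and that striatal sum the highest of the 64 pups, so each result that rests on this pup is also given without it. Control and male library names come in 2 forms. In males the pup number ends in a capital or a lower-case letter, and in female controls the group is followed by a low line (the first form) or not (the second, which includes 8-2x, with a hyphen). By this reading 9 of 10 male control libraries and all 12 low-dose male libraries have the first form, all 20 high-dose male libraries the second, and female controls 5 and 6. No form was assigned to the 13 libraries of high-dose females, which all have the low line, since high-dose males of the second form have it too. The same holds for the 5 female control libraries read as the first form, which also end in a lower-case letter. The form is thus read from different features in males and females, and the labels do not say that these match. Results that use the form over both sexes assume that they do. Name form and high dose can therefore not be told apart in males. What the form stands for is not stated.

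Bdnf and Ntf3, the ligands, are transcribed from several promoters. Sequences before 3 of their start sites are shown because the counts per gene sum the transcripts of all start sites, and because the levels of both genes moved together across pups. RefSeq's promoter table (build GRCr8) holds 6 windows for Bdnf on the plus strand of chromosome 3, 3 for Ntf3 on the minus strand of chromosome 4 and 1 for Sort1 on the plus strand of chromosome 2; Ntrk2, Ntrk3 and Ngfr have none there. Each sequence gives the 120 bases before the start, 5′ to 3′ on the gene's strand, and capitals mark the letters TGACG or CGTCA, which are part of the cAMP response element, the site of the activity-dependent factor CREB.
Bdnf window 1, chr3:116619513-116619632: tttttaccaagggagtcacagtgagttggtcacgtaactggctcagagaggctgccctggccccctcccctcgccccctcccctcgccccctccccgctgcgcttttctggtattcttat
Bdnf window 4, chr3:116637738-116637857: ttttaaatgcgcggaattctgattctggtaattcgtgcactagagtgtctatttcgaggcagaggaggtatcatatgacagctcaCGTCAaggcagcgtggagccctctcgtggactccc
Ntf3 window 3, chr4:160668908-160669027: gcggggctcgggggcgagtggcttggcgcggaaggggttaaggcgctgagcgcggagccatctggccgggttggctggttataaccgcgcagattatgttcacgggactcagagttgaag
Over the full 250 bases before each start and on both strands, 1 of the 6 Bdnf windows held these letters, 35 bases before the start, and 0 of the 3 Ntf3 windows and the Sort1 window did. They occur in 18.2% of the 33469 promoter windows in the table. The complete element TGACGTCA, which contains them, was in 0 of the 10 windows of these genes and in 1.59% of all windows.

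Bdnf, the ligand of TrkB, varied more between pups than between treatments. Over the 64 pups it ranged from 2.53 to 14.9 CPM, a 5.87-fold range, and 17.3% of the variance of its log2 level lay between the 13 groups. In males, Bdnf was at 7.24 ± 2.71 CPM in CONF, 7.66 ± 3.52 in CONSC, 10.9 ± 2.64 in Aro0.5, 8.06 ± 2.12 in BPA0.5, 7.80 ± 2.37 in CPF1, 6.42 ± 4.87 in Aro5, 8.94 ± 3.35 in BPA5 and 7.23 ± 2.46 in CPF3. In females it was at 7.01 ± 1.85 CPM in CONF, 7.37 ± 2.23 in CONSC, 7.27 ± 2.72 in Aro5, 9.06 ± 2.45 in BPA5 and 6.47 ± 2.90 in CPF3. The highest group mean was that of Aro0.5 males and the lowest that of Aro5 males, groups of the same chemical. The 4 Aro0.5 males had 7.43, 10.6, 12.2 and 13.6 CPM, all above the median of 6.55 CPM in the 9 male controls, whose range was 4.24 to 13.7 CPM and which they overlapped. Their log2 fold change was 0.64 (SE 0.246), and it did not pass the threshold (quasi-likelihood test of edgeR, Benjamini-Hochberg adjusted p = 0.197). In 21 fits that each left out 1 pup, the adjusted p by the same test ran from 0.0549 to 0.476. The lowest was without the control male 8-4y, at 13.7 CPM, where the log2 change was 0.80. The highest was without the Aro0.5 male 98-8y, at 13.6 CPM. Under the other settings the adjusted p lay between 0.157 (DESeq2, log2 change 0.63) and 0.536. The latter was among pups dissected within the study's time window, with a log2 change of 0.53. Aro5 males spread widest, with 3 of 6 pups below the lowest male control and 1, at 14.9 CPM, above the highest.

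**Figure D1:**
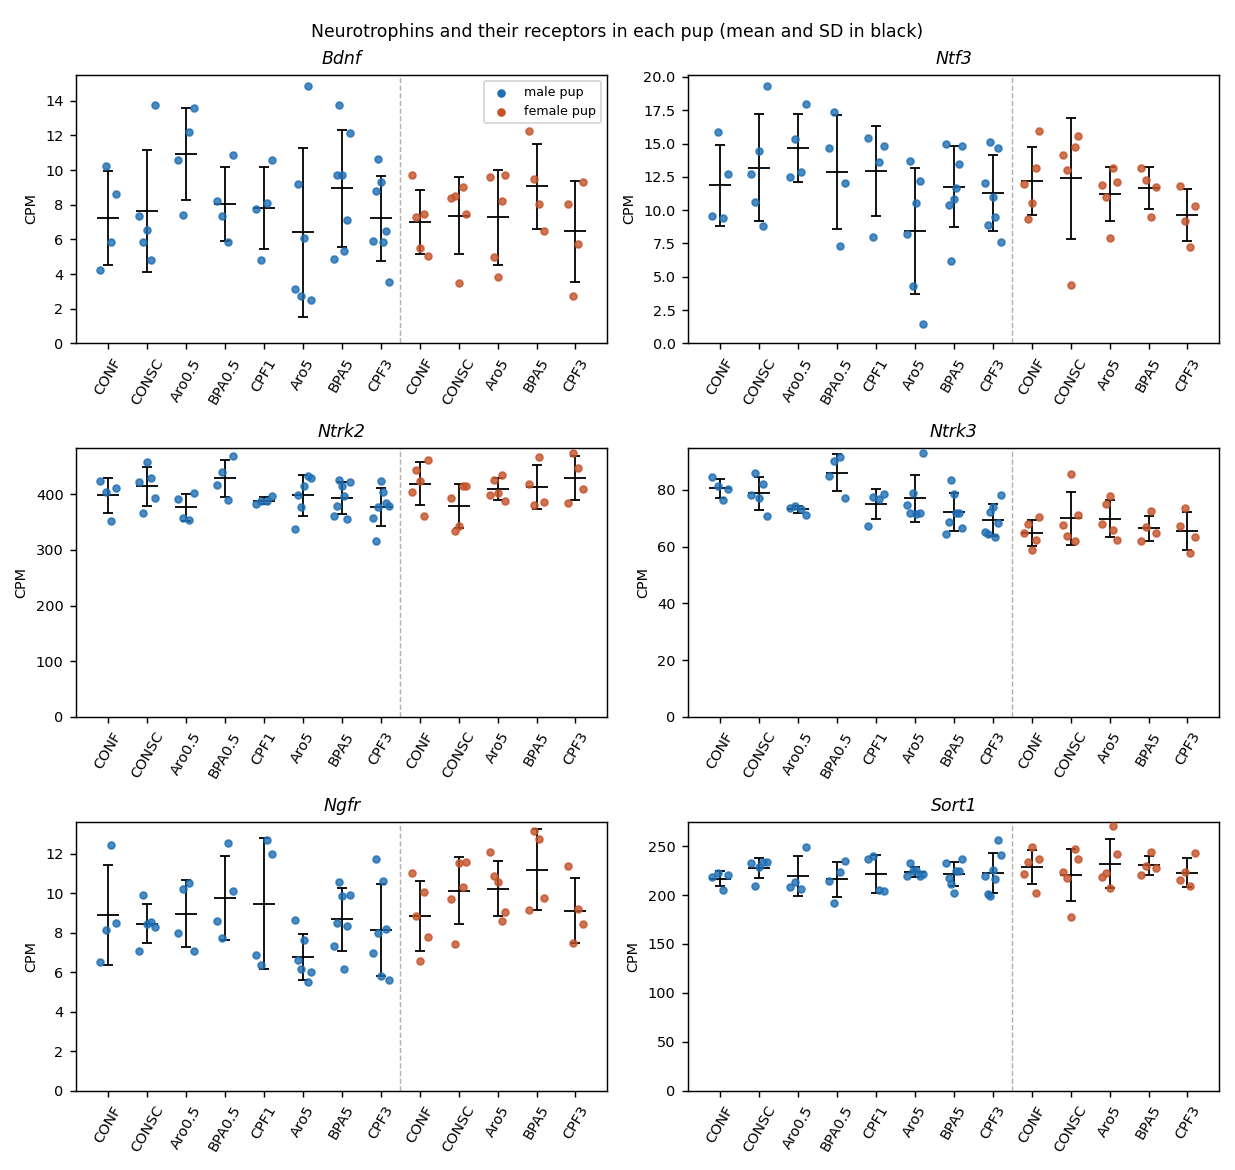
Level of each of the 6 genes in every pup, in CPM on linear axes that start at 0, in 13 groups (males blue, left of the dashed line; females orange). Black marks give the mean and SD. Groups next to each other in the order of means overlap in range for each gene. Groups further apart can separate, as CONF females and CONF males do for Ntrk3. Bdnf, Ntf3 and Ngfr spread widely between pups (Bdnf from 2.53 to 14.9 CPM). Ntrk2, Ntrk3 and Sort1 stay within narrow bands (Sort1 from 178 to 271 CPM).

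Ntf3, which encodes neurotrophin-3, the ligand of TrkC, had the widest range of the 6 genes, from 1.48 to 19.3 CPM or 13.0-fold. Male groups had 11.9 ± 3.05 CPM (CONF), 13.2 ± 4.02 (CONSC), 14.7 ± 2.56 (Aro0.5), 12.9 ± 4.28 (BPA0.5), 13.0 ± 3.38 (CPF1), 8.42 ± 4.72 (Aro5), 11.8 ± 3.05 (BPA5) and 11.3 ± 2.86 (CPF3). Female groups had 12.2 ± 2.54 CPM (CONF), 12.4 ± 4.55 (CONSC), 11.2 ± 2.01 (Aro5), 11.7 ± 1.55 (BPA5) and 9.64 ± 1.93 (CPF3). As for Bdnf, the order ran from Aro0.5 males at the top to Aro5 males at the bottom. Aro5 males had a lowest level of 1.48, a median of 9.38 and a highest of 13.7 CPM, with 3 of 6 pups below the lowest male control at 8.82 CPM. The fitted log2 fold change was -0.54 (SE 0.280) and did not pass the threshold (edgeR, Benjamini-Hochberg adjusted p = 0.456). It moved to -0.33 when 1 pup per litter and sex was kept, which leaves out 120-2y, the pup at 1.48 CPM, and to -0.08 with library name form as a covariate, a fit that rests on the 1 male control library of the second form. With female controls added and sex and name form as terms it was -0.66. The same pup had the second highest striatal marker sum, 766 CPM, and a thalamic sum of 199 CPM; the part of these in its Ntf3 level was not tested.

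Ntrk2, which encodes TrkB, was steady. Its level ranged 1.51-fold over all pups, from 316 to 475 CPM, and the group means lay between 376 ± 24.2 CPM in Aro0.5 males and 429 ± 39.9 CPM in CPF3 females. Counts per gene sum the full-length receptor and the truncated form without the kinase, which are products of the same gene. In male controls Ntrk2 was at 407 ± 32.5 CPM and in female controls at 399 ± 42.1 CPM. Its fitted log2 changes in the 9 treated groups lay between -0.10 (CPF3 males) and 0.13 (CPF3 females), and the 95% interval of the latter, from -0.04 to 0.29, was the one that reached highest.

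Ntrk3, which encodes TrkC, had the largest share of variance between groups among the 6 genes, 51.3%. The order ran from BPA0.5 males (86.1 ± 6.53 CPM), CONF males (80.6 ± 3.36), CONSC males (78.8 ± 5.77), Aro5 males (77.0 ± 8.31), CPF1 males (75.0 ± 5.28), Aro0.5 males (73.2 ± 1.32) and BPA5 males (72.2 ± 6.83) through CONSC females (70.1 ± 9.36), Aro5 females (69.8 ± 6.48) and CPF3 males (69.4 ± 5.62) to BPA5 females (66.5 ± 4.45), CPF3 females (65.5 ± 6.68) and CONF females (64.9 ± 4.54). Each of these neighbours overlapped in range, as did all 72 pairs of neighbours in the orders of the 6 genes. Neighbours in an order of means are close by construction, so this does not speak of groups further apart. CONF females, at 70.4 CPM or less, did not overlap CONF males, at 76.4 CPM or more. In CPF3 males the lowest, median and highest levels were 63.3, 68.4 and 78.2 CPM, all below the male control median of 80.3 CPM and 4 of 7 below the lowest male control at 70.7 CPM. Their log2 fold change of -0.19 (SE 0.063) did not pass the threshold (edgeR, Benjamini-Hochberg adjusted p = 0.27). In the same males the marker lists with which Ntrk3 rose across pups were at 197 ± 163 CPM against 350 ± 146 CPM in male controls (striatum), 202 ± 55.5 against 282 ± 56.4 (interneurons) and 201 ± 34.5 against 268 ± 32.5 (CA2 and CA3). Their part in the Ntrk3 level was not tested. BPA5 males had a log2 change of -0.13 (SE 0.063) with an adjusted p of 0.538 by the same test, and BPA0.5 males, at 77.3, 85.1, 90.3 and 91.7 CPM, one of 0.14 (SE 0.058) with an adjusted p of 0.513.

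Ngfr, which encodes the p75 receptor, ranged 2.39-fold, from 5.50 to 13.1 CPM. The means of the male groups were 8.89 ± 2.52 CPM in CONF, 8.46 ± 1.00 in CONSC, 8.95 ± 1.69 in Aro0.5, 9.74 ± 2.12 in BPA0.5, 9.47 ± 3.33 in CPF1, 6.76 ± 1.16 in Aro5, 8.67 ± 1.58 in BPA5 and 8.13 ± 2.33 in CPF3. Those of the female groups were 8.85 ± 1.77 CPM in CONF, 10.1 ± 1.70 in CONSC, 10.2 ± 1.41 in Aro5, 11.2 ± 2.04 in BPA5 and 9.11 ± 1.65 in CPF3. Aro5 males had the lowest mean and BPA5 females the highest. Of the 6 Aro5 males (lowest 5.50, median 6.41 and highest 8.62 CPM), 5 lay below the male control median of 8.46 CPM and 3 below the lowest male control. The log2 fold change was -0.33 (SE 0.157), which did not pass the threshold (edgeR, Benjamini-Hochberg adjusted p = 0.413). Within the dissection window of 10.30 to 13.20 h it was -0.53 with an adjusted p of 0.126, with name form as a covariate it was -0.07, and with sex and name form as terms over both sexes of controls it was -0.24. Across pups, 6 marker lists moved with Ngfr. In Aro5 males neocortical layer markers summed to 617 ± 92.4 CPM, against 428 ± 101 CPM in male controls. CA1 markers were at 270 ± 60.4 against 167 ± 55.9 CPM. Endothelial markers were at 71.1 ± 8.44 against 72.5 ± 6.39 CPM, and excitatory neuron markers at 339 ± 64.8 against 332 ± 44.4 CPM. Interneuron markers were at 261 ± 79.1 against 282 ± 56.4 CPM, and oligodendrocyte precursor markers at 301 ± 19.9 against 328 ± 20.9 CPM. Their part in the Ngfr level was not tested.

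Sort1, which encodes sortilin, was the steadiest across groups, with 8.19% of its variance between them. Group means ran from 216 ± 18.0 CPM in BPA0.5 males to 232 ± 24.8 CPM in Aro5 females. Fitted log2 changes in the treated groups lay between -0.01 and 0.07, against -0.16 to 0.64 for Bdnf.

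None of the 6 genes passed the threshold of an adjusted p under 0.05 in any treated group. Against male controls, 0 of 6 passed in Aro5, where 0.195% of all genes tested did, 0 of 6 in BPA5 (0.189% of genes), 0 of 6 in CPF3 (0.159%), 0 of 6 in Aro0.5 (0.124%), 0 of 6 in BPA0.5 (0.0434%) and 0 of 6 in CPF1 (0% of genes). Against female controls, 0 of 6 passed in Aro5, BPA5 and CPF3, each with 0% of 16992 genes. At an unadjusted p under 0.05 there was 1 of the 6 in each of Aro5, BPA5, CPF3, Aro0.5 and BPA0.5 males (Ngfr, Ntrk3, Ntrk3, Bdnf and Ntrk3) and 0 in CPF1 males and the female groups, and of all genes 11.8%, 9.10%, 12.6%, 18.5% and 8.58% in the former and 2%, 3.23%, 4.08% and 8.79% in the latter. DESeq2 also called 0 of 6 in all 9. The median log2 change of the 6 genes in males was -0.10 for Aro5, -0.02 for BPA5 and -0.08 for CPF3, beside medians of 0.00, 0.01 and 0.00 over all genes. In females it was 0.06, 0.05 and -0.03, beside 0.00, 0.00 and -0.01, and in Aro0.5, BPA0.5 and CPF1 males 0.09, 0.12 and 0.03, beside 0.00, 0.00 and 0.01.

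**Figure D2:**
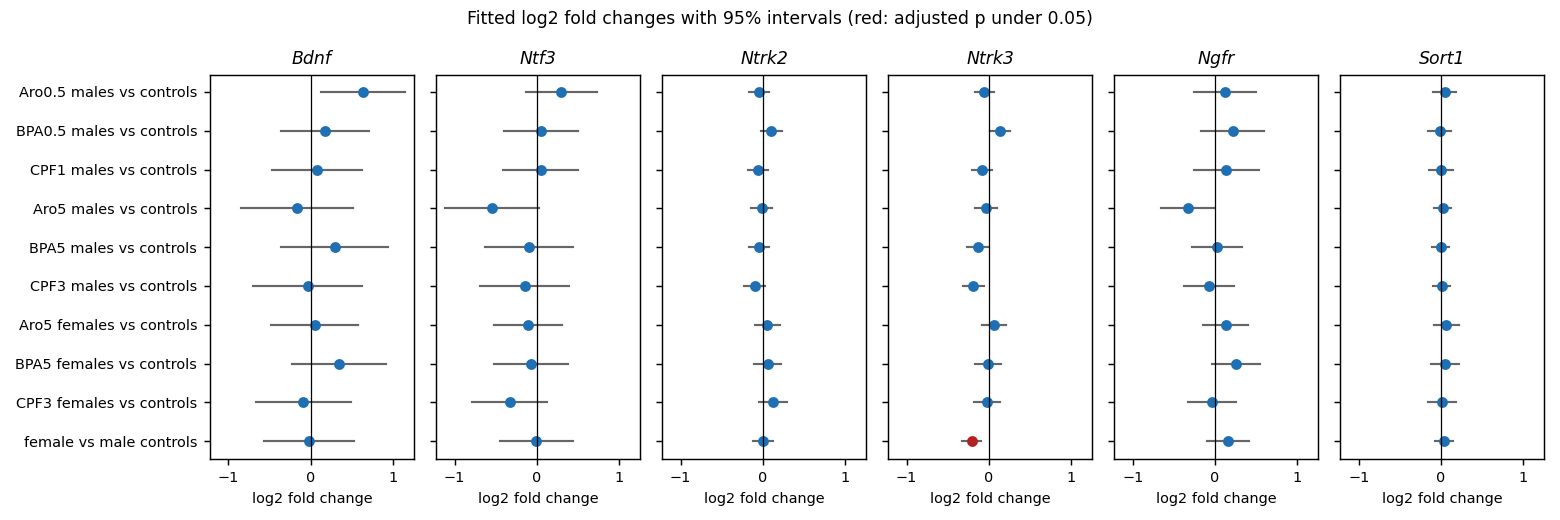
Fitted log2 fold change (x axis) of each gene in 10 comparisons (rows), with 95% intervals from edgeR's quasi-likelihood fit. Red marks an adjusted p under 0.05, reached by Ntrk3 alone, at -0.21 between female and male controls. Intervals are wide for Bdnf and Ntf3 and narrow for Ntrk2, Ntrk3 and Sort1.

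Among the 3 pairs of high-dose treatments in males, 0 of 6 genes passed between Aro5 and BPA5, Aro5 and CPF3, or BPA5 and CPF3 (0% of 16393 genes in each, adjusted over all genes; 1, 1 and 0 of the 6 at an unadjusted p under 0.05, with 4.4%, 4.17% and 2.7% of all genes). The doses of Aro5 and BPA5 were both 5 mg/kg by feed, while CPF3 was 3 mg/kg by injection. The log2 difference of Aro5 minus BPA5 was -0.35 for Ngfr (95% interval -0.69 to -0.02), -0.46 for Bdnf (-1.16 to 0.25) and -0.45 for Ntf3 (-1.04 to 0.15). Aro5 minus CPF3 gave 0.16 for Ntrk3 (0.01 to 0.30). For the ligands, intervals of this width do not show that Aroclor 1254 and bisphenol A act alike.

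Between feeding and injection controls, 0 of 6 genes passed in males (0.013% of 15387 genes called) and in 0 of 6 in females (0% of 16618). The largest log2 differences were 0.15 for Ntf3 in males and 0.18 for Ngfr in females, with adjusted p of 1.00 and 0.858 by edgeR with Benjamini-Hochberg adjustment.

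Between the sexes, Ntrk3 was the single gene of the 6 that differed. Female CONF pups had 59.0, 62.3, 64.9, 68.0 and 70.4 CPM and female CONSC pups 62.2, 63.8, 67.6, 71.1 and 85.6 CPM. Male CONF pups had 76.4, 80.3, 81.4 and 84.5 CPM and male CONSC pups 70.7, 77.1, 78.2, 82.1 and 86.1 CPM. Thus 8 of 10 females lay below the lowest male, and the ranges overlapped through 6-7x at 71.1 and 9-1x at 85.6 CPM. The log2 difference, female minus male, was -0.21 (SE 0.057; edgeR, Benjamini-Hochberg adjusted p = 0.00444), a female mean of 84.7% of the male mean. Without 9-1x it was -0.23 with an adjusted p of 0.000793 by the same test. This comparison called 27.1% of all 17282 genes tested, so that 1 of 6 is no more than the share of genes in general.

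Among libraries of the first name form alone (5 female and 9 male), the Ntrk3 difference was -0.18 and no longer passed the threshold (adjusted p = 0.126 by edgeR), and 11.7% of genes did. With name form as a covariate over all control libraries it was -0.19 with an adjusted p of 0.027 by the same test. Both fits take the form to mean the same in males and females, which the labels do not state. A male CONF pup, N2-2y, was sequenced in both forms and had 89.8 CPM of Ntrk3 in the first and 79.6 CPM in the second; the female N4-3x, also sequenced in both, had 67.6 and 68.8 CPM. The labels give these libraries different dissection times, 12.09 and 11.55 h, so that they may not be from the same pup; they were summed as 1. In female controls, where both forms occur, 0 of 6 genes differed between them (1.43% of 16577 genes called), and the Ntrk3 log2 difference was -0.06 (SE 0.081). Of the lists that moved with Ntrk3 across pups, excitatory neuron markers summed to 403 ± 142 CPM in female controls (443 ± 66.7 without 9-1x) and 332 ± 44.4 CPM in male controls, and meningeal markers to 168 ± 26.0 and 137 ± 23.6 CPM. Endothelial markers were at 90.7 ± 7.61 in females and 72.5 ± 6.39 CPM in males, and CA2 and CA3 markers at 231 ± 34.4 and 268 ± 32.5 CPM. Striatal markers were at 323 ± 290 CPM in females (236 ± 94.3 without 9-1x) and 350 ± 146 CPM in males, and interneuron markers at 268 ± 105 (239 ± 55.6 without 9-1x) and 282 ± 56.4 CPM. Thalamic markers hardly differed, at 621 ± 213 CPM in females (647 ± 209 without 9-1x) and 651 ± 261 CPM in males. Cajal-Retzius markers were likewise close, at 170 ± 12.1 and 172 ± 15.4 CPM. The part of these in the sex difference was not tested.

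For the other 5 genes the log2 differences between the sexes, which did not pass, were -0.02 for Bdnf, 0.00 for Ntf3, 0.00 for Ntrk2, 0.16 for Ngfr and 0.04 for Sort1. Under the same high-dose treatment Ntrk3 means were 69.8 CPM in females and 77.0 in males for Aro5, 66.5 and 72.2 for BPA5, and 65.5 and 69.4 for CPF3. Whether treatment acted differently in the sexes was tested as an interaction, and 0 of 6 genes passed for Aro5 (0.0984% of genes called), BPA5 (0.0405%) or CPF3 (0.0463%). The widest was that of Ngfr in Aro5 pups, where the log2 change was 0.13 in females and -0.33 in males (difference 0.45, SE 0.209; edgeR, Benjamini-Hochberg adjusted p = 0.515).

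The spread between pups within groups was shared by some of the genes. On deviations of log2(CPM + 0.5) from the group mean, over 64 pups, 6 of 15 gene pairs were correlated after adjustment over the 15 (2-sided permutation within groups, 100000 resamples). The share of pairs of genes in general that would pass was not computed, so this count cannot be read as particular to these genes. Bdnf rose with its fellow ligand Ntf3 (Pearson r = 0.56, permutation p = 0.0001, adjusted p = 0.00075; Spearman rho = 0.49, p = 0.00031). Ntrk3 ran opposite to both ligands, to its own ligand Ntf3 with r = -0.59 (permutation p = 0.0001, adjusted p = 0.00075; rho = -0.42, p = 0.00164) and to Bdnf with r = -0.44 (permutation p = 0.00213, adjusted p = 0.0106; rho = -0.39, p = 0.00507). Leaving out 2 pups gave r of 0.47, -0.49 and -0.37 for these pairs. They were the pups farthest from the median of Bdnf, Ntf3 and Bdnf in turn. For the pairs that follow, the farthest pups were those in Ntrk2, Ngfr, Ntrk3 and Bdnf in turn. Sort1 rose with Ntrk2 (r = 0.37, permutation p = 0.005, adjusted p = 0.015; rho = 0.33, p = 0.0133; 0.34 without the 2 farthest pups) and ran opposite to Ngfr, with which sortilin forms a receptor complex (r = -0.41, permutation p = 0.00336, adjusted p = 0.0126; rho = -0.43, p = 0.0026; -0.43 without them). The pair of Ntrk3 and Sort1 (r = -0.35, permutation p = 0.0182, adjusted p = 0.0455; rho = -0.29, p = 0.043; -0.38 without the farthest pups) had an adjusted p of 0.206 without the female 9-1x and therefore rests on that pup. Bdnf and its receptor Ntrk2 showed no such relation (r = 0.12, permutation p = 0.409, adjusted p = 0.558; rho = 0.09, p = 0.504; 0.15 without the farthest pups).

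In males alone 2 of the 6 pairs and in females alone 0 passed, while all 6 kept their sign in each sex. Some of these pups are littermates, so that the 64 are not fully independent. For 18 litters with pups of both sexes, the deviations of brother and sister had r between -0.35 and 0.28 for the 6 genes (lowest adjusted permutation p = 0.578 over 6 relations). Total counts and dissection time were correlated with 0 of 6 genes after adjustment (r between -0.05 and 0.16 for total counts, lowest adjusted permutation p = 0.836; between -0.34 and 0.24 for time, lowest adjusted permutation p = 0.106).

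Within groups, the levels of the 6 genes moved with markers of cell types and neighbouring brain regions. The summed CPM of 16 marker lists, 1 for each cell type or brain region, gave 96 relations, of which 37 passed after adjustment over the 96, and 35 of the 37 had the same sign in males and females; the exceptions were Ntf3 with Cajal-Retzius markers and Bdnf with neocortical layer markers. The share of such relations for genes in general was not computed, so this count cannot be read as particular to these genes either. In bulk RNA, fewer cells of a type and less RNA per cell cannot be told apart. Bdnf had the closest relation, with thalamic markers (Tcf7l2, Lhx9, Gbx2, Rora, Slc17a6): r = 0.86 (rho = 0.88; permutation p = 1e-05, the smallest these permutations can give, adjusted p = 8.73e-05), with r = 0.88 in males, 0.84 in females and 0.86 without the 2 farthest pups. The 3 pups with the lowest Bdnf levels (Aro5 males 120-2y and 116-6y and CPF3 female 38-5x) had thalamic sums of 199, 94.1 and 97.0 CPM. The 3 with the highest (Aro5 male 120-1y, injection control male 8-4y and BPA5 male 81-1y) had sums of 1003, 1188 and 1041 CPM. Bdnf ran opposite to striatal markers (r = -0.81) and to choroid plexus markers (r = -0.67). It also rose with dentate gyrus markers (r = 0.58, 0.72 in males and 0.25 in females) and meningeal markers (r = 0.38). With interneuron (r = -0.50) and neocortical layer markers (r = -0.34) it fell. Aro0.5 males, the group with the highest Bdnf mean, also had a thalamic sum of 972 ± 215 CPM against 651 ± 261 CPM in male controls and a striatal sum of 171 ± 82.6 against 350 ± 146 CPM; the part of these in their Bdnf level was not tested.

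**Figure D3:**
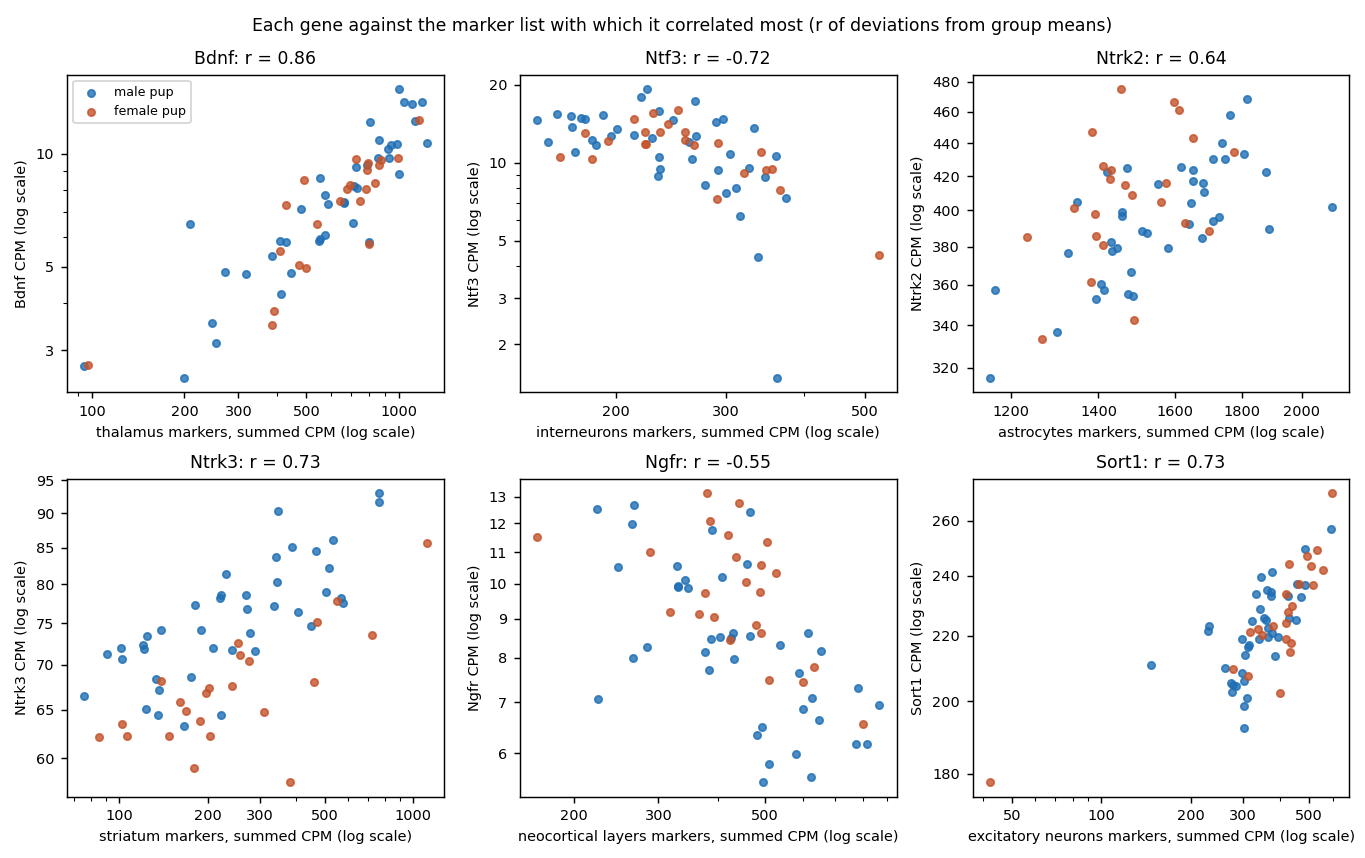
Level of each gene (y axis, CPM, log scale) against the summed CPM of the marker list with the largest r (x axis, log scale), 1 point per pup, males blue and females orange. Bdnf rises with thalamic markers across the whole range in both sexes (r = 0.86), and the injection control female 9-1x lies apart at the right of the striatal and interneuron axes and at the left of the excitatory neuron axis.

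Ntf3 ran opposite to interneuron markers (Gad1, Gad2, Slc32a1; r = -0.72, -0.66 without the 2 farthest pups) and striatal markers (r = -0.71) and rose with excitatory neuron markers (r = 0.64). Ntrk3 had the mirror pattern, rising with striatal (r = 0.73) and interneuron markers (r = 0.71) and falling with meningeal (r = -0.61) and excitatory neuron markers (r = -0.58). Ntrk2 passed with 1 of 16 lists, that of astrocytes (r = 0.64, 0.68 in males and 0.58 in females), cells that are known to carry the truncated form of TrkB. Sort1 rose with excitatory neuron markers (r = 0.73), and with r = 0.70 without 9-1x. Ngfr ran opposite to neocortical layer (r = -0.55) and CA1 markers (r = -0.52) and rose with oligodendrocyte precursor markers (r = 0.38). It also rose with endothelial markers (r = 0.41), with r = 0.54 in males but 0.06 in females. The neocortical and CA1 lists are not independent of each other. Without 9-1x, r was 0.87 for Bdnf and thalamus, -0.67 for Ntf3 and interneurons and 0.69 for Ntrk3 and striatum. Each relation of a marker list given with its r had an adjusted permutation p of at most 0.0214. The points share their library, and a list that takes more of the counts leaves less to others. Col1a2 and Fibcd1 of the meningeal and CA1 lists were at 0 counts in all 64 pups, and Slco1a4, Trp73 and Hba-a1 were not found by symbol.

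**Figure D4:**
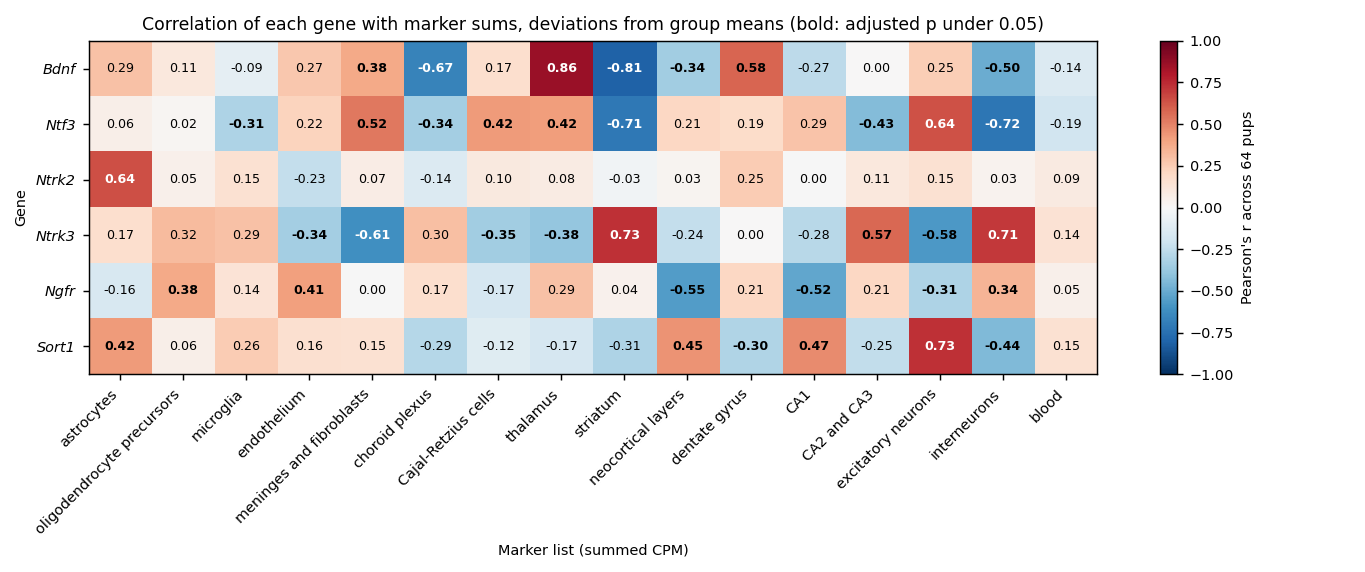
Pearson's r over 64 pups between each gene (rows) and the summed CPM of each marker list (columns), both as log2 deviations from the group mean. Bold marks an adjusted permutation p under 0.05 over the 96 relations. Bdnf and Ntf3 share signs for striatum, thalamus and interneurons, Ntrk3 has the opposite sign there, and Ntrk2 stands out with astrocytes alone.

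The genes most alike to each member across pups, by Spearman's rho over 64 pups among 11822 genes with a mean of at least 5 CPM, are given as a description, without a test. For Bdnf they were Nrn1 (neuritin; rho = 0.95), the Wnt ligand Wnt9b (0.92) and Lef1, a transcription factor of the Wnt pathway (0.92). Ntf3 was most alike to Serpinf1 (0.79), Mboat1 (0.75) and LOC102553895 (0.75). Ntrk2 was most alike to Zcchc24 (0.81), the calcium channel gene Itpr2 (0.79) and Aqp4, the water channel of astrocytes (0.78), which is in the astrocyte list. Ntrk3 was closest to Erich3 (0.81), Klhl13 (0.80) and Arhgap18 (0.80), and Ngfr to Fxyd6 (0.75), Rasgef1c (0.74) and Nnat (0.74). Sort1 was closest to the synaptic vesicle gene Rph3a (0.88), Camk2a, a kinase of excitatory synapses (0.86), and Slc17a7, the vesicular glutamate transporter (0.86), a gene of the excitatory neuron list.

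Of 68 other genes of the pathway, 67 were found, and in the 9 treated groups 0 of 585 tests passed in either direction (edgeR, Benjamini-Hochberg adjustment), with 10.6% at an unadjusted p under 0.05. Over all genes, between 0% and 0.195% passed in these groups, and between 2% and 18.5% had such a p. Among other ligands and receptors (10 genes, 9 or 10 tested), Lingo1, a partner of p75 and the Nogo receptor, was at 211 ± 66.4 CPM over all pups, and Sorcs2, a relative of sortilin, at 98.9 ± 19.6 CPM. The smallest p values were those of Sorcs1 in Aro0.5 males (log2 change -0.62, SE 0.159, adjusted p = 0.115) and Rtn4r, the Nogo receptor, in BPA0.5 males (-0.58, SE 0.175, adjusted p = 0.379).

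Among 12 genes of proneurotrophin processing and secretion, Cpe (carboxypeptidase E, which sorts proBDNF) was at 1122 ± 149 CPM and differed by 0.19 in Aro0.5 males (adjusted p = 0.16), Serpine2, a protease inhibitor, was at 225 ± 28.3 CPM, and the convertase gene Furin differed by 0.21 in CPF3 females (adjusted p = 0.465). Of the 31 adapters and kinases, 30 were found and 29 tested. Kidins220, a scaffold of Trk receptors, was at 596 ± 53.6 CPM and Arhgdia at 467 ± 74.2 CPM, and the docking protein genes Gab2 and Gab1 had log2 changes of -0.15 in BPA5 males (adjusted p = 0.364) and 0.23 in BPA0.5 males (adjusted p = 0.431). Of these 29, 23 had a log2 change above 0 in Aro5 males, 20 in BPA5 males and 24 in CPF3 males, with medians of 0.11, 0.08 and 0.07 beside all-gene medians of 0.00, 0.01 and 0.00. In the low-dose males 9 (Aro0.5), 10 (BPA0.5) and 14 (CPF1) of the 29 were above 0, with medians of -0.04, -0.04 and -0.02, and in females 10 (Aro5), 18 (BPA5) and 19 (CPF3), with medians of -0.02, 0.04 and 0.03. Groups of a sex were compared with the same controls, so these counts are not independent of each other. In males, name form and high dose cannot be told apart here either.

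The 15 genes known to respond to BDNF or to activity had medians of -0.08, -0.07 and -0.08 in Aro5, BPA5 and CPF3 males. The median was 0.20 in CPF1 males, where 11 of 15 were above 0, beside 0.01 over all genes, and it was -0.06 in Aro0.5 and 0.03 in BPA0.5 males and -0.03, -0.06 and -0.05 in Aro5, BPA5 and CPF3 females. Homer1, a postsynaptic scaffold, was at 59.3 ± 13.8 CPM and Spry2, a feedback inhibitor of receptor tyrosine kinases, at 54.7 ± 4.23 CPM. Nptx2, a synaptic pentraxin, had a log2 change of 0.59 in Aro0.5 males (SE 0.203, adjusted p = 0.164), and the immediate early gene Fosb, at 1.06 ± 0.873 CPM, one of 1.39 in CPF1 males (SE 0.453, adjusted p = 0.997). All adjusted p values of pathway genes are edgeR's, adjusted over all genes by Benjamini-Hochberg.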

How the data were processed

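Poly-A RNA was sequenced from stranded libraries, aligned with STAR to Rnor_6.0 and counted per gene with featureCounts by the authors, and the deposited values are raw counts of reads per gene. The strand setting of the counting and the tool versions are not given in the sources used here, and the labels and methods name different sequencers. The 66 libraries come from 64 pups. The libraries of a pup sequenced as 2 were summed. Groups were taken from the sample labels.

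CPM was computed from these counts. Differences were tested with edgeR 4.0.16 (R 4.3.3; TMM factors, filterByExpr, quasi-likelihood test, Benjamini-Hochberg adjustment over all genes, threshold 0.05), separately for high-dose males, low-dose males and females, each with the controls of that sex, and for the sexes and their interaction with treatment in a fit of control and high-dose pups of both. DESeq2 1.42.0 and limma 3.58.1 (voom, litter block) were alternatives. The code was tested on simulated counts: among 16393 genes, 63% of 200 genes changed 1.5-fold and 81% of those changed 2-fold in Aro5 males were recovered, and in Aro5 females, among 16992 genes, 66.5% and 84.5%. Of the calls in these runs 1.56%, 7.95%, 3.62% and 3.43% were false. The changed genes were drawn at random from all genes tested. Recovery was not computed for single genes, such as Bdnf and Ntf3 with their wide intervals (SE 0.335 and 0.280 in Aro5 males). Correlations used log2(CPM + 0.5). Most pups of a group and sex come from separate litters, but Aro5 has 2 litters with a pair of pups of the same sex, and p values measure the spread between these pups, counting error included.

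The 6 genes, the marker and pathway lists and the tests were chosen with earlier results of these data known. Named pathway genes are, per list, the 2 with the highest mean CPM and the 2 with the smallest p in a treated group, and genes alike are the 3 with the highest rho. Pups named by number were singled out after their values were seen. Exon lengths were not used, so levels are not compared between genes.

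As a check of pairing, littermates of both sexes (32 litters, 18 with both sexes, 7 of them control litters) had a consensus correlation over genes of -0.0061.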

Additional observations from a re-analysis of the deposited data

Results flagged for a closer look

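Of 78 sets of pups (6 genes in 13 groups), 6 held a pup far from the others by Dixon's test, a rate near the 1 in 20 that chance gives. In injection control females, 9-1x was low in both ligands, with 3.50 CPM of Bdnf where the other 4 had 7.5 to 9.02 CPM, and 4.4 CPM of Ntf3 where they had 13.0 to 15.6 CPM. In injection control males, 8-4y was high in Bdnf, at 13.7 CPM against 4.83 to 7.37 CPM, and 11-4y was low in Sort1, at 209.8 CPM against 229 to 234 CPM. In Aro5 males, 120-2y was high in Ntrk3, at 93.0 CPM against 71.6 to 78.9 CPM. In CPF1 males, 16-7y was low in Ntrk3, at 67.2 CPM against 76.7 to 78.6 CPM. No cause was tested.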

How the results depend on the processing

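Of 3954 log2 fold changes of the 6 genes recomputed under other settings over 19 comparisons, 3198 came from fits that each left out 1 pup. Ntrk3 between the sexes was the only call of the main fits, so nearly all of these values were uncalled from the start. In all, 3953 stayed on their side of the threshold and 1 did not, and 249 that were not called changed sign. The exception was Ntrk3 between female and male controls among libraries of the first name form alone, where 0 of 6 genes passed (log2 difference -0.18, adjusted p = 0.126 by edgeR); fewer samples entered that fit. With litter as a replicate block (limma-voom) Ntrk3 kept its call (adjusted p = 0.00431 with Benjamini-Hochberg adjustment), and the block changed no other call. Among pups dissected within the time window, the Ntrk3 sex difference was -0.18 and passed narrowly (adjusted p = 0.0449 by edgeR). Leaving out each pup in turn, the Ntrk3 sex difference lay between -0.23 and -0.17, Bdnf in Aro0.5 males between 0.50 and 0.80, Ntf3 in Aro5 males between -0.73 and -0.33, Ngfr in Aro5 males between -0.42 and -0.25 and Ntrk3 in CPF3 males between -0.22 and -0.16. Of the 6 correlated gene pairs, 2 passed in males alone, 0 in females alone (23 pups) and 2 in pups with a library of the first name form (26 pups). The fits with sex and name form as terms, with name form as a covariate among control libraries, without the deepest female library and the correlations and marker sums without 9-1x were added after seeing the data. Bdnf and Ntf3 had the widest intervals. The SD of their log2 levels within groups was 0.560 and 0.509, against 0.291 for Ngfr. Their counts were as low as 41 and 24 in a pup, and those of Ngfr as low as 65. The part of low counts in the intervals was not tested.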

Other observations

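In the same control pups, the other genes of the pathway were also compared between the sexes, where 27.1% of all genes passed. Among other ligands and receptors 2 of 10 were higher in females and 0 lower, among processing genes 2 and 1 of 12, among adapters and kinases 6 and 3 of 29, and among genes that respond to BDNF or activity 5 and 1 of 15 (edgeR, Benjamini-Hochberg adjustment). The last list had a median log2 difference of 0.30, beside -0.02 over all genes.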
